A study of Mus musculus with 2 samples.

Results

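Amino acid transporter genes were examined in mouse cells labelled as lymphoma, grown in 2 culture conditions with 1 array each. The genes were taken by name, as every array probe set with a single gene symbol of the solute carrier families Slc1, Slc3, Slc6, Slc7, Slc36, Slc38 or Slc43. This gave 63 genes with 125 probe sets, out of 18194 genes on the array. Each gene is represented by the probe set with the highest mean intensity over the 2 arrays. The first array carried RNA of lymphoma cells kept in a serum-containing medium, and the second carried RNA of lymphoma cells that shared their culture with endothelial cells, which form the lining of blood vessels. The labels give no lymphoma line, mouse strain, genotype, animal age, medium of the co-culture, source of the endothelial cells or culture time, and do not say whether the cell types were separated. The comparison asks which of these genes differ between the cultures. Of the 63 symbols, 3 end in "os" (Slc7a6os, Slc6a19os and Slc36a1os) and name genes on the strand opposite a transporter gene, not transporters.

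Cells take up and release amino acids through these carriers. Exchangers of the Slc7 family reach the plasma membrane as pairs with a heavy chain of the Slc3 family and swap one amino acid for another, whereas Slc1 and Slc38 carriers use the sodium gradient to load cells with glutamate, glutamine, alanine and other small amino acids. Dividing tumour cells, lymphomas included, are known for high levels of the leucine exchanger Slc7a5 and its heavy chain Slc3a2, and the transcription factor ATF4 raises many of these genes when amino acids run short. Slc6 carriers move neurotransmitters, taurine, creatine and glycine, and Slc36 and several Slc38 proteins act at the lysosome, where amino acids are sensed by the growth kinase complex mTORC1.

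With 1 array per group no difference below has a test, and no p-value is given. A gene was called measured when its probe set exceeded the floor, the pooled median intensity of 44.3, on at least 1 array. Values below the floor were set to it for a fold, so that such a fold is a lower bound. The measure of error used is the disagreement between probe sets of 1 gene, with a pooled SD of 0.60 in log2 units for 5480 genes (0.63 for the 19 transporter genes with several measured probe sets). It does not cover the spread between cultures. RNA length, read as the ratio of 3′ to 5′ intensity, differed between the arrays: beta-actin gave 3.56 for serum and 2.05 for co-culture, and the transferrin receptor Tfrc gave 13.2 and 5.03. Its part in the differences was not tested. Of 16 endothelial marker genes 3 were measured, and the summed intensity of the 16 was 806 in serum and 936 in co-culture. The 3 did not share a direction: Egfl7 read 473 and 532, Eng 36.5 and 58.5, and Flt1 93.3 and 26.4, at least 2-fold lower. Eng passed the floor in co-culture alone and Flt1 in serum alone, which fixed the direction of each. Egfl7 made up the largest part of both sums. Pecam1, an endothelial adhesion molecule, stood at 21.3 and 18.4, and Cdh5, the endothelial cadherin, at 19.6 and 44.1, all below the floor. Of 15 B-lineage and leukocyte markers 2 were measured, with sums of 469 and 422. These were Ebf1 (160.9 in serum and 85.3 in co-culture) and Coro1a (75.5 and 125.3), each above the floor on both arrays. The pan-leukocyte antigen Ptprc was below the floor on both arrays (21.5 and 3.14), which goes against the lymphoma label. Of 10 fibroblast and mural markers 5 were measured, with sums of 371 and 470.

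Of the 63 genes 34 were measured (54.0%, against 63.4% of all genes), 30 of them on both arrays. Of the 34, 3 passed the 2-fold limit upward in co-culture (8.82%), 2 passed it downward (5.88%) and 29 lay within it. Slc1a2, among the higher, was measured through co-culture alone, and Slc7a4, among the lower, through serum alone, so the filter fixed their direction. Shares past 2-fold were not taken over genes above the floor on both arrays. The share of all 11543 measured genes past the limit was 4.6% upward and 10.1% downward. These shares rest on 3 and 2 genes, so the counts set the transporters apart from other genes in neither direction. The median log2 difference, co-culture minus serum, was -0.28 over the 34 genes and -0.06 over all measured genes. Over genes above the floor on both arrays it was -0.33 for 30 transporters and -0.10 for 9901 genes. A negative difference was found for 22 of 34 transporters (64.7%) and for 54.1% of all measured genes. Scaling to the bacterial hybridisation spikes, in place of the deposited scaling, gave 2 higher (5.88%) and 5 lower (14.7%) transporters. Among all measured genes it gave 357 higher (3.10%) and 1620 lower (14.1%), against 531 and 1162 before. That scaling moved the median of all measured genes from -0.06 to -0.25, and turned the small positive differences of Slc38a1, Slc38a2, Slc3a1 and Slc7a12 negative (-0.04 to -0.19).

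**Figure D1:**
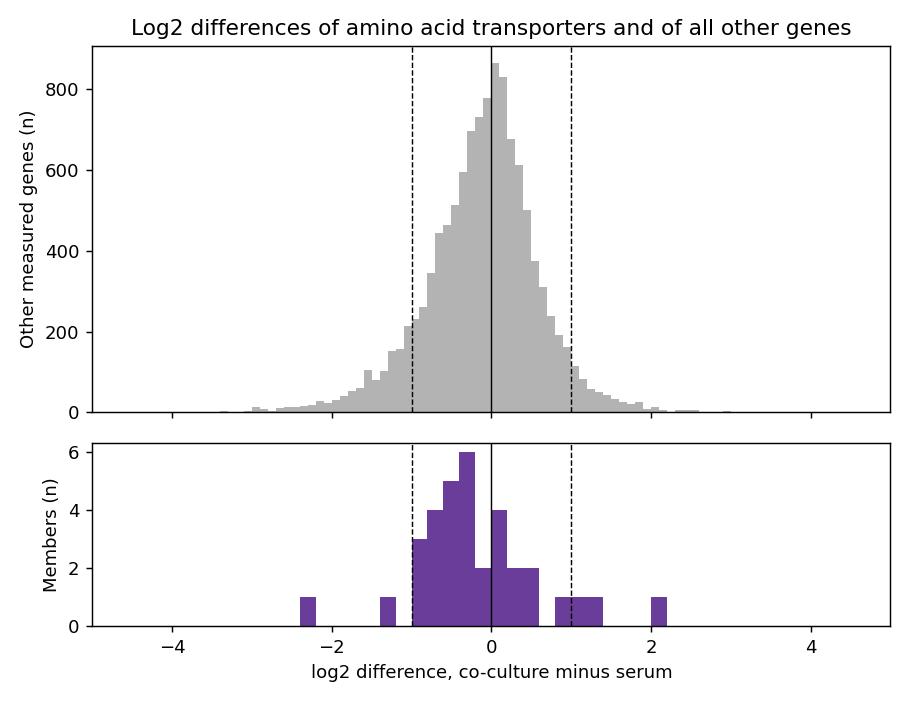
Number of measured genes by log2 difference, co-culture minus serum, with 1 array per group. The upper panel shows all other measured genes and the lower panel the 34 measured amino acid transporter genes. Dashed lines mark 2-fold. The transporters lie mostly between -1 and 0, with a median of -0.28, and 5 lie past 2-fold.

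Slc6a6, the sodium-coupled taurine transporter, had the largest difference of any transporter that was above the floor on both arrays. Its intensity was 743 in serum and 3195 in co-culture, 4.30-fold higher. All 4 of its probe sets were measured and all were brighter in co-culture. A second one went from 437 to 3022, 6.91-fold. The dimmer pair read 30.0 to 196, at least 4.42-fold, and 11.4 to 77.7, at least 1.75-fold. Both of the dimmer pair counted as measured through the co-culture array alone, which fixed their sign in advance. Under the 10 alternative settings tried its log2 difference ran from 1.91 to 2.79.

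The other members of the Slc6 family were lower, near the floor or not measured. Slc6a13, a carrier of GABA that also takes up taurine, read 460 in serum and 180.3 in co-culture, 2.55-fold lower by its single probe set. Slc6a17, which loads neutral amino acids into synaptic vesicles, read 1577 and 909, a log2 difference of -0.79, but a second probe set gave 0.01. The glycine transporter Slc6a9 read 3661 and 2659 (log2 difference -0.46) and the creatine transporter Slc6a8 read 745 and 584 (-0.35). For both, another probe set had the opposite sign, at 0.53 for Slc6a9 and 0.55 for Slc6a8. The noradrenaline transporter Slc6a2 passed the floor on the co-culture array alone by its chosen probe set, at 25.8 and 56.6. So 1 of 6 measured Slc6 genes passed 2-fold upward and 1 downward, against 4.6% and 10.1% of all measured genes. The remaining 15 of 21 symbols, among them the serotonin, dopamine and proline transporters Slc6a4, Slc6a3 and Slc6a7 and the broad neutral amino acid carriers Slc6a14, Slc6a15 and Slc6a19, stayed below the floor on both arrays, at 43.3 or less.

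The heavy chains Slc3a2 and Slc3a1 and most of the exchangers that pair with them lay within 2-fold. Slc3a2, the CD98 heavy chain, read 7878 in serum and 6579 in co-culture, a log2 difference of -0.26. Its main partner Slc7a5, the LAT1 leucine exchanger, read 8427 and 6256, a difference of -0.43. Both differences are negative and smaller than the pooled probe set SD of 0.60. Slc7a8, the LAT2 exchanger, was just above the floor at 60.8 and 47.2. Slc7a7, which exports arginine and lysine in exchange for neutral amino acids, read 356 and 309.7, a difference of -0.20. Slc3a1, the heavy chain of the cystine carrier of kidney and gut, read 187.0 and 191, while its partner Slc7a9 was below the floor on both arrays (18.6 and 14.7).

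Slc7a6, a paralog of Slc7a7 with the same kind of exchange, was the exception among the Slc3a2 partners. Its chosen probe set read 1141 in serum and 2530 in co-culture, 2.22-fold higher. A second probe set of like brightness read 1523 and 1808, a log2 difference of 0.25, so the call rests on which of them is taken. With the spike scaling the difference was 0.96, just under 2-fold. Slc7a6os, on the opposite strand at the same locus, read 563 and 415, a difference of -0.44, with 0.75 by another probe set. Which strand each probe set detects was not checked here.

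Slc7a11, the cystine importer that supplies cysteine for glutathione and pays for it with glutamate, was the other partner of Slc3a2 with a positive difference. Its chosen probe set read 440 in serum and 599 in co-culture, a log2 difference of 0.45. A dimmer probe set read 52.9 and 339, 6.40-fold higher. The probe sets share their direction but not its size. Averaged over its probe sets the gene had a log2 difference of 1.56.

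The promoter of Slc7a11 is shown because it holds the letters of the amino acid response element, the site through which ATF4 acts on genes of amino acid supply. The motif TGATGNAA was searched on both strands in the RefSeq promoter windows (GRCm38.p6, 250 bases before to 50 after a start), which were found for 46 of the 63 genes. It occurred in 3.97% of all 32851 windows and in 5 of the 67 windows of transporter genes (7.46%). These 5 windows belong to 4 genes, Slc7a11, Slc1a4, Slc7a7 and the unmeasured Slc6a21. Sequences are written 5′ to 3′ along the gene's strand, with the matches in capitals. All 3 lie on the minus strand. The Slc7a11 stretch (chr3:50443637-50443695) holds a match in each orientation. The Slc1a4 stretch (chr11:20332710-20332733) ends with a match across the start, and the Slc7a7 stretch (chr14:54418062-54418101) holds 1 match further upstream. A second Slc7a7 match, TGATGCAA, begins 1 base before the start that this window surrounds, and the other Slc7a7 window holds the same site at position -243 from its start. It is not in the stretch shown.
Slc7a11: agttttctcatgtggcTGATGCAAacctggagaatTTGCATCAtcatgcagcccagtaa
Slc1a4: cagcgtgcctcctgcgTTGCATCA
Slc7a7: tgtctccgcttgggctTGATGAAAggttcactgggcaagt

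The 3 measured genes with the motif did not share a direction. Slc7a11 had a positive difference of 0.45, and Slc1a4 and Slc7a7 had -0.23 and -0.20. None of the 3 reached 2-fold by its chosen probe set, against 4.6% upward and 10.1% downward among all measured genes. A match describes the letters in the window and does not show that a factor binds there.

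The carriers of cationic amino acids differed among themselves. Slc7a1, the CAT1 arginine and lysine transporter of most cells, was alike on both arrays at 9882 and 9732, a log2 difference of -0.02, with -0.22 by a second probe set. Slc7a3, the related CAT3 transporter known from brain and early embryo, read 2147 in serum and 1201 in co-culture, a difference of -0.84, or -1.03 with the spike scaling. Slc7a2, the CAT2 form of liver and activated macrophages, was below the floor on both arrays. Slc7a4, which resembles these carriers in sequence but whose transport activity is not settled, read 223 in serum and 28.9 in co-culture, at least 5.02-fold lower. Its chosen probe set carries the suffix for shared sequence, and a second probe set read 76.4 and 21.4, a difference of -0.79. Slc7a4 counted as measured only through the serum array. Slc7a12, a small neutral amino acid exchanger, read 125 and 139. Of 10 measured Slc7 symbols 1 was higher, 1 lower and 8 within 2-fold, against 4.6% higher and 10.1% lower among all measured genes. The other 6 of the 16 were below the floor at 43.6 or less.

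**Figure D2:**
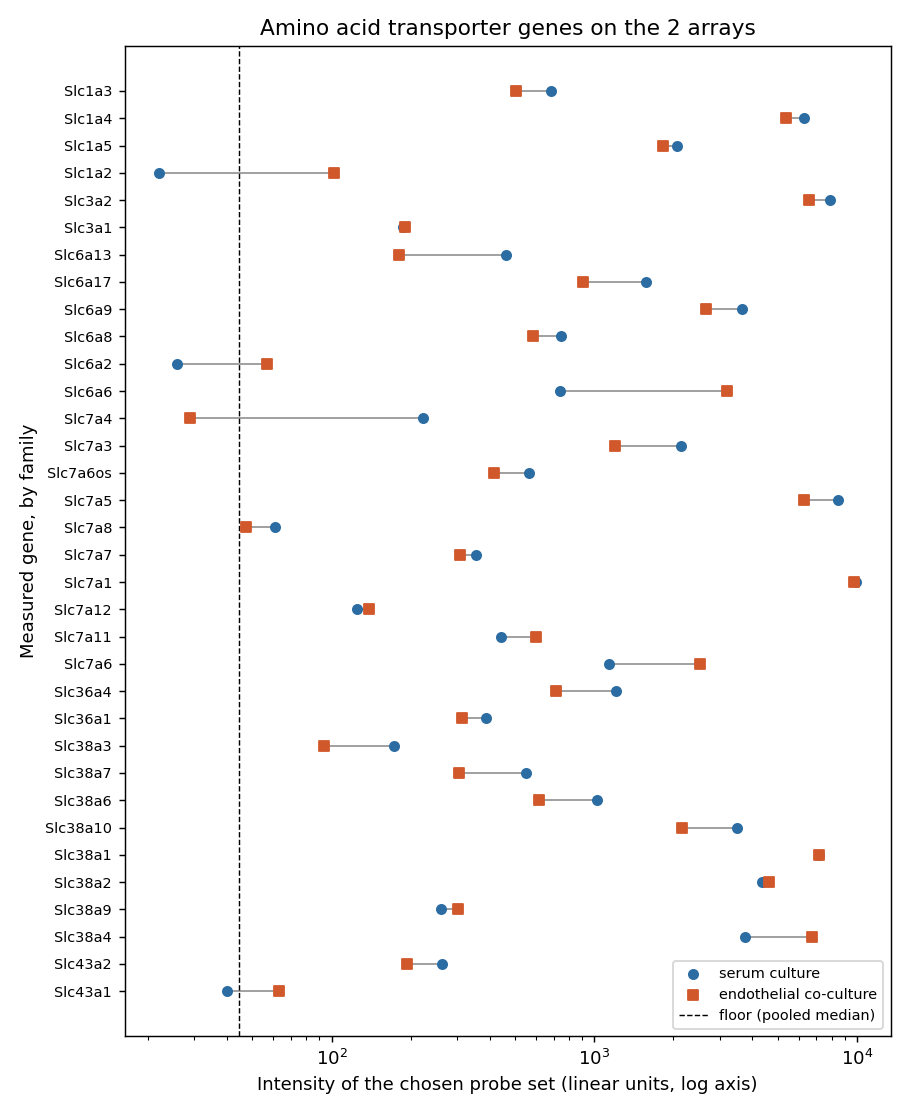
Intensity of the chosen probe set of each of the 34 measured genes on the serum array (circles) and the co-culture array (squares), on a log axis, ordered by family. The dashed line is the floor of 44.3, and there is 1 array per group. Wide gaps are seen for Slc7a4 (223 to 28.9), Slc1a2 (22.1 to 102.5, from under the floor) and Slc6a6 (743 to 3195), while Slc7a1 and Slc38a1 almost overlap.

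Slc1 carriers of glutamine and small neutral amino acids lay close together on both arrays. Slc1a5, the ASCT2 glutamine exchanger that many tumours use, read 2061 in serum and 1828 in co-culture, a log2 difference of -0.17. Slc1a4, the ASCT1 exchanger of alanine, serine and cysteine, read 6262 and 5349, a difference of -0.23, and its other measured probe sets gave -0.36 and -0.13. Slc1a5 and Slc1a4 both differed by less than the probe set SD.

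The glutamate transporters of the same family were dimmer or unmeasured. Slc1a3, the GLAST carrier of glia, read 685 and 503, a difference of -0.44, but 4 dimmer probe sets were brighter in co-culture. Of these, 1 was above the floor on both arrays (73.3 and 80.2, a difference of 0.13), and the other 3 were under the floor in serum (9.82 or less) and at 57.8, 59.8 and 46.1 in co-culture. Those 3 counted as measured through co-culture alone, which fixed their sign. The array medians, 36.9 in serum and 50.7 in co-culture, differ in the same direction. Slc1a2, the GLT-1 carrier that clears most glutamate in the brain, read 22.1 in serum and 102.5 in co-culture, at least 2.31-fold higher. It counted as measured only through the co-culture array, and its other 4 probe sets were below the floor on both arrays. Averaged over its probe sets its difference was 0.24. In that mean the 4 below the floor are raised to it on both arrays and so count as no difference. The glutamate carriers Slc1a1, Slc1a6 and Slc1a7 were below the floor, at 24.0 or less.

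Of 9 Slc38 genes 8 were measured, a larger share than in any other of these families except Slc3. None of the 8 reached 2-fold, against 4.6% upward and 10.1% downward among all measured genes. With 8 genes this does not set the family apart. Slc38a1 and Slc38a2, sodium-coupled importers of glutamine and alanine (system A), were alike on the arrays. Slc38a1 read 7138 in serum and 7156 in co-culture. Slc38a2, which cells induce when amino acids are scarce, read 4350 and 4614, a log2 difference of 0.09, with 0.78 and -0.38 by other probe sets. Slc38a4, a system A carrier of liver and placenta, read 3757 and 6717, a difference of 0.84, and a second probe set gave 0.66. Its range over the 10 settings was 0.65 to 0.90, so it stayed under 2-fold in all of them.

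Several other Slc38 genes had negative differences. Slc38a3, the system N glutamine carrier of liver and kidney, read 174 in serum and 93.5 in co-culture (-0.89). Slc38a7, which exports glutamine from the lysosome, read 548 and 306 (-0.84). Both passed 2-fold with the spike scaling, at -1.08 and -1.03, and Slc38a3 also after quantile normalization, at -1.03. Slc38a6 read 1022 and 615, a difference of -0.73, and -0.14 by a dimmer probe set. Slc38a10 read 3481 and 2154, a difference of -0.69, and its 5 other measured probe sets ran from -1.29 to 0.30. Slc38a5 was below the floor (0.94 and 2.03).

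Carriers known from the lysosome did not share a sign, and none reached 2-fold by its chosen probe set and the deposited scaling. Among all measured genes 4.6% passed that limit upward and 10.1% downward. Slc38a9, which signals lysosomal arginine to mTORC1, read 260.1 in serum and 303 in co-culture, a log2 difference of 0.22. Its 6 measured probe sets ran from -0.05 to 1.71. Slc36a1, a proton-coupled exporter of small amino acids from the lysosome, read 388 and 314 (-0.31), and Slc36a4, a proline and tryptophan carrier, read 1212 and 715 (-0.76). The other 3 Slc36 symbols were below the floor. Slc43a2, the LAT4 carrier of branched-chain amino acids, read 263 and 193 (-0.44). Its relative Slc43a1, the LAT3 carrier, was near the floor at 39.9 and 63.0, and Slc43a3, which carries purine bases and no amino acids, was below it (16.3 and 11.8).

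Different probe sets of 1 gene often disagreed. Of the 34 measured genes 19 had at least 2 measured probe sets, and in 10 of the 19 these shared a sign. In 7 of the 19 the probe sets spanned more than 1 on the log2 scale, which is the size of the 2-fold limit. Slc6a6, Slc7a6, Slc7a11, Slc38a4, Slc38a1, Slc1a4, Slc7a1, Slc7a4, Slc38a6 and Slc43a2 were the 10 with a shared sign. A probe set above the floor on only 1 array has its sign fixed by that array, as for some of Slc6a6, Slc7a4 and Slc38a6. Of the 5 genes past 2-fold, 1 (Slc6a6) had another probe set past 2-fold in the same direction.

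**Figure D3:**
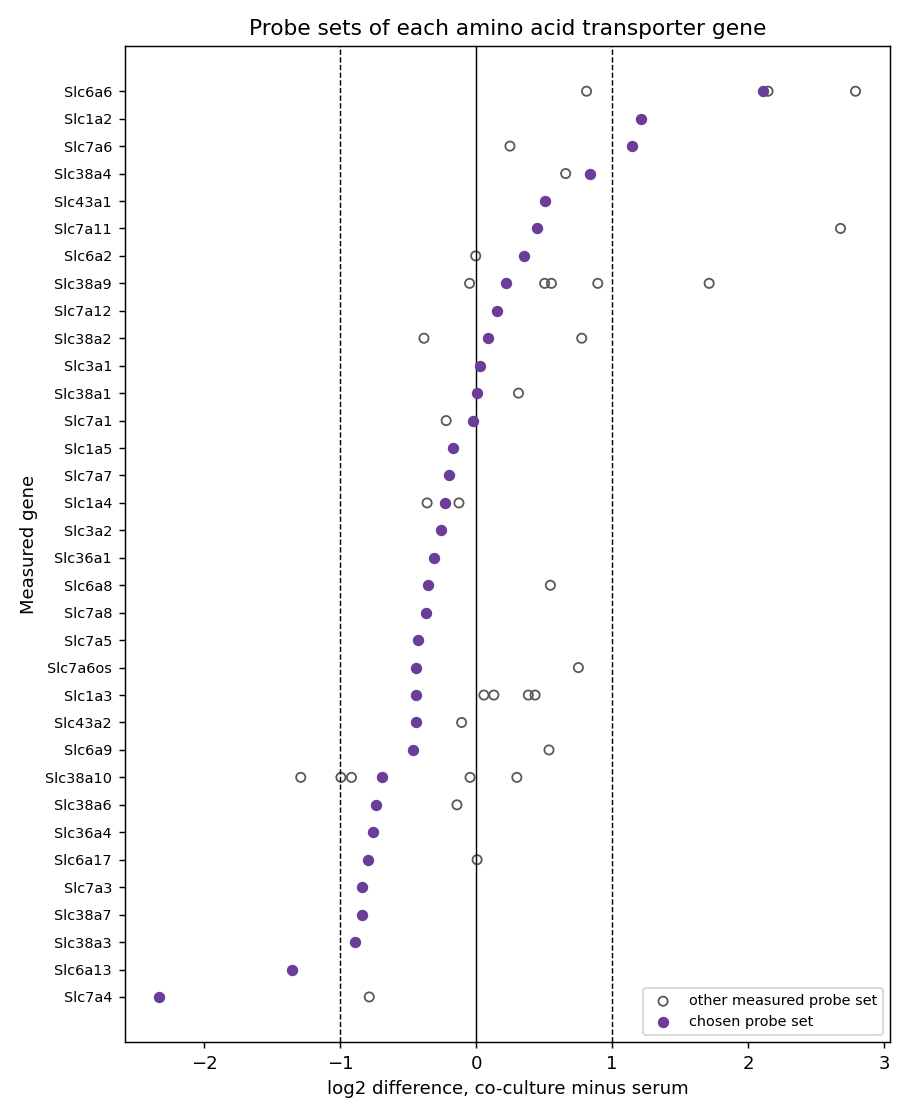
Log2 difference, co-culture minus serum, of every measured probe set of the 34 measured genes. Filled points are the chosen probe sets and open circles the others, and dashed lines mark 2-fold. Slc6a6 has 4 points on the positive side, from 0.81 to 2.79, while Slc38a9 runs from -0.05 to 1.71 and Slc38a10 from -1.29 to 0.30. A probe set above the floor in co-culture alone, as are the dimmer pair of Slc6a6, can only be positive.

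Genes of the response to amino acid shortage and stress were lower or within 2-fold in co-culture. This list holds genes that respond through ATF4, but also Atf4 itself and regulators that act before it, such as the kinase gene Eif2ak4. Of 28 measured genes of this list 6 passed 2-fold downward (21.4%, against 10.1% of all measured genes) and 0 upward (against 4.6%). The list's median difference was -0.37, against -0.06 over all measured genes. Vldlr, a lipoprotein receptor, read 2048 in serum and 452 in co-culture, 4.53-fold lower, and its 5 other measured probe sets were lower too (-0.39 to -1.68). The stress transcription factor Ddit3 read 2189 and 678 (3.23-fold lower, though a second probe set gave a log2 difference of 0.20). Chac1, which breaks down glutathione, read 2752 and 1042, and the stress protein Nupr1 read 5086 and 1937, 2.64-fold and 2.63-fold lower. The transcription factor Atf5 read 3442 and 1481, and the alanyl-tRNA synthetase gene Aars read 5006 and 2261, 2.32-fold and 2.21-fold lower. Atf4 itself read 8537 and 7319 (-0.22, but 0.20 by a second probe set) and Asns, which makes asparagine, 10421 and 8281 (-0.33). The list was drawn up with earlier results of these arrays known, so it is not independent evidence of direction.

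Among genes that make or break down amino acids, 5 of 29 measured passed 2-fold downward (17.2%, against 10.1% of all measured genes) and 0 upward (against 4.6%), and the median was -0.31. Cbs and Cth, which turn homocysteine into cysteine, read 1329 in serum and 170.5 in co-culture, and 1537 and 697. Cbs was 7.80-fold lower (a second probe set gave -1.09 in log2) and Cth 2.20-fold lower. Prodh and Aldh4a1, the enzymes that degrade proline to glutamate, read 570.4 and 102.7, and 531 and 182, 5.55-fold and 2.92-fold lower. Bcat2, the mitochondrial branched-chain aminotransferase, was 2.31-fold lower (1067 and 462). The serine synthesis genes were alike on the arrays, with Phgdh at 12703 and 11404 and Psat1 at 10848 and 10557, and the third enzyme of that pathway, Psph, read 7592 and 5001 (-0.60).

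Of 17 measured genes of glutathione synthesis and use, a list that also holds antioxidant genes which neither make nor use glutathione, 3 passed 2-fold upward (17.6%, against 4.6% of all measured genes) and 1 downward (5.88%, against 10.1%). The median was 0.28, and 1 of the 3 higher genes, Gclc, makes glutathione. Gclc, the catalytic subunit of the enzyme that joins cysteine to glutamate, read 893 in serum and 1899.9 in co-culture, 2.13-fold higher. Its partner Gclm read 2345 and 4110, a difference of 0.81. A second probe set gave 1.19 for Gclc and 1.17 for Gclm. The quinone reductase Nqo1 (739 and 2679) and the haem oxygenase Hmox1 (1010 and 3326) were the other 2 higher genes, at 3.63-fold and 3.29-fold, and Chac1 was the lower one. By another probe set Gsr, Txnrd1 and Srxn1 also passed 2-fold upward (log2 differences up to 2.23, 1.73 and 2.15). The count of higher genes therefore rests on the probe set taken. Other probe sets of Glrx, Gss and Nfe2l2 were lower in co-culture (-0.31, -0.46 and -0.13). Slc7a11, the cystine importer described above, had the same sign as Gclc and Gclm by both of its measured probe sets.

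Of 31 measured genes of amino acid sensing by mTORC1 1 passed 2-fold upward (3.23%, against 4.6% of all measured genes) and 2 downward (6.45%, against 10.1%). The median was -0.20, and neither share was above that of all genes. Rraga, a Rag GTPase that recruits mTORC1 to the lysosome, read 169 in serum and 751 in co-culture, 4.43-fold higher by its single measured probe set. Tsc1, a subunit of the complex that restrains mTORC1, was 2.53-fold lower (1980 and 783), but its 2 other measured probe sets gave -0.59 and -0.56. The sestrin Sesn3 was 2.20-fold lower (2106 and 957) but a second probe set gave 0.03. The leucine sensor Sesn2 had a difference of -0.13, with -0.91 by a second probe set. Another sestrin, Sesn1, had -0.58, and its 2 other measured probe sets gave -1.76 and -1.51. The kinase Mtor had -0.67, but its 2 other measured probe sets gave 0.15 and 0.16. The arrays measure bulk RNA, in which fewer cells of a type and less RNA per cell cannot be told apart.

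**Figure D4:**
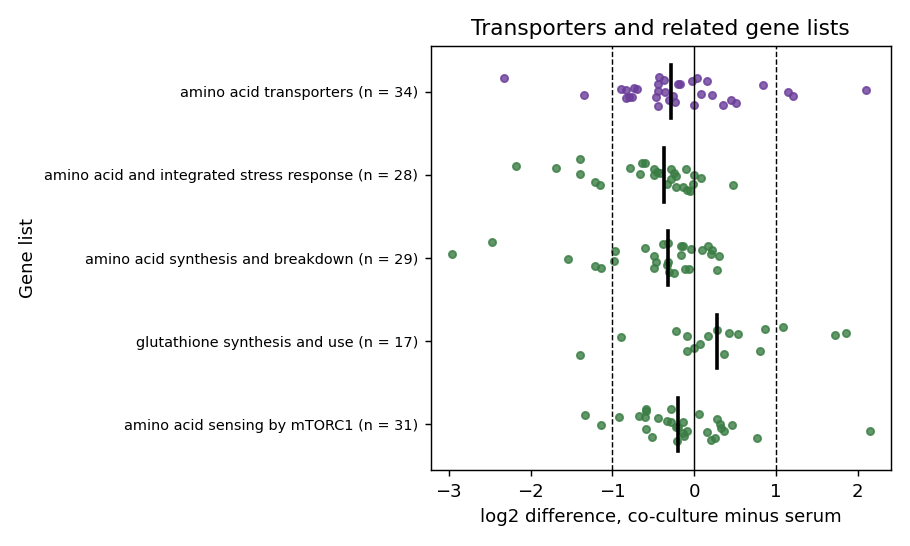
Log2 difference, co-culture minus serum, of each measured gene in the transporter families and in 4 related lists, with 1 array per group. Black bars are medians and dashed lines mark 2-fold, and points are spread vertically for legibility. The medians are -0.28 for the transporters, -0.37 for the stress response, -0.31 for amino acid synthesis and breakdown, 0.28 for glutathione and -0.20 for amino acid sensing.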

How the data were processed

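Per the labels' protocols, column-purified total RNA was amplified to biotinylated cRNA, read on arrays of 1 colour. The authors deposited 1 linear intensity per probe set (45101 on each array). Array software, background correction and scaling: not given in the sources used here. Array medians were 36.9 and 50.7, and trimmed means (2% off each tail) were equal at 500. Gene symbols came from the platform annotation, updated by gene number to RefSeq GRCm38.p6. Of them 34958 had 1 symbol, of which 34754 were found in RefSeq, 932 had several and 9211 were listed with none.

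Values below the floor (percentile 50 of all values) were raised to it, then put on the log2 scale, using Python 3.11.15, NumPy 2.4.6, pandas 2.3.3 and Matplotlib 3.10.9. Every gene took the probe set of highest mean intensity. A gene was called higher or lower at a log2 difference of 1 in size. Steps were tested on simulated data. The 2 arrays are the only samples and their number limits precision. All members are accounted for. Those past 2-fold, and a list of 25 carriers whatever their values, are named with values, as are genes past 2-fold in 4 related lists. Any other gene was named with its values known. The members and lists were chosen with earlier results of these data known. Another 8 settings were tried (floors at percentiles 25 and 75, a pseudocount of 16, median subtraction, quantile normalization, spike scaling over 18 probe sets, the mean over probe sets, and no shared probe sets), and 2 more that were added after the data were seen.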

Additional observations from a re-analysis of the deposited data

How the results depend on the processing

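The counts of transporters moved with the floor and with the choice of probe set. Of the 63 genes, 56 were measured with the floor at percentile 25 (an intensity of 12.8) and 22 with it at percentile 75 (389). The lower floor gave 6 transporters at least 2-fold higher, 10.7% of those measured, against 12.7% of all genes at that floor. The number at least 2-fold lower was 0 with the higher floor, against 5.53% of all genes at that floor. It was 5 with the spike scaling (14.7%, against 14.1% of all genes) and 1 without probe sets of shared sequence (2.94%, against 9.93%). It was also 1 with the second brightest probe set, an alternative added after the data were seen, for which no share of all genes was taken. The median difference stayed negative under all 10 alternatives, from -0.48 with the spike scaling to -0.08 with the second brightest probe set. Leaving out the 3 opposite-strand genes gave -0.26. Of 327 gene values under the alternatives, 17 moved by more than the pooled probe set SD of 0.60, and none of the 5 genes past 2-fold changed sign. Many of the 327 could not move so far. Leaving out opposite-strand genes cannot change another gene, and a gene with 1 measured probe set keeps its value under the second brightest setting. Median subtraction and spike scaling shift nearly all genes alike, by less than this SD. Slc6a6 stayed past 2-fold in all 10. Slc7a6 ran from 0.25 to 1.21, Slc7a4 from -2.95 to -0.79, Slc6a13 from -1.54 to -0.24 and Slc1a2 from 0.24 to 2.21. The low end for Slc1a2 is its mean over probe sets, in which those below the floor count as no difference. Signal over background limits Slc1a2, Slc7a4, Slc6a2 and Slc43a1, which were measured on 1 array. No replicate could be left out, since each group has 1 array. No paired analysis was possible because each group has 1 array.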

Other observations

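Carriers of amino acids and peptides outside the 7 families were mostly within 2-fold. This list was picked with the values already known. Of its 11 measured genes 1 passed 2-fold downward (9.09%, against 10.1% of all measured genes) and 0 upward (against 4.6%), and the median was 0.07. Slc16a10, a carrier of aromatic amino acids, read 1982 in serum and 2225 in co-culture, a difference of 0.17, but 2 other probe sets gave 1.15 and 1.32. Ctns, the lysosomal cystine exporter, read 601 and 494 (-0.28), and the peptide carrier Slc15a4 read 832 and 746 (-0.16). Slc17a7, a vesicular glutamate carrier, was the lower one (89.2 and 35.97, which is under the floor). It counted as measured through the serum array alone, so the filter fixed its direction.

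Enzymes that make the substrates of Slc6a6 and Slc6a8 were also read, again from a list picked with the values known. Of 5 measured genes of taurine and creatine synthesis 2 were at least 2-fold lower (40%, against 10.1% of all measured genes) and 0 higher (against 4.6%). Gamt, the last enzyme of creatine synthesis, read 206 in serum and 45.1 in co-culture, 4.57-fold lower, and Fmo1, which oxidises hypotaurine to taurine, read 312 and 72.3, 4.32-fold lower. Csad, which makes hypotaurine, read 207 and 126 (-0.72), and Cdo1, at the start of the taurine pathway, was below the floor (15.9 and 29.6). Gamt, Fmo1 and Csad had no other measured probe set.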
